A study of Mus musculus with 12 samples.

Results

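Bleomycin was compared with PBS over both genotypes of a mouse study of lung fibrosis. The comparison set all 6 libraries of bleomycin-treated mice against all 6 libraries of PBS-treated mice, which together are the 12 libraries of the series, and genotype entered the model as an additive term. Con mice (PBS) and BLM mice (bleomycin) have an intact p300 gene: the labels call them wild type, while the study's text gives their alleles as Spc-p300 f/f, floxed but not deleted. For the RNA-seq cells, the supplement names C57BL/6 mice and ATII cell-specific p300 knockouts, aged 8 to 10 weeks. The controls are thus described in 3 ways. KO mice (PBS) and KOBLM mice (bleomycin) are Spc-p300 d/d, in which exon 9 of the p300 gene Ep300 is flanked by loxP sites and removed by a tamoxifen-inducible CreERT2 under the promoter of Spc (Sftpc), so that the deletion is aimed at alveolar type II (ATII) cells alone. Each of these 4 groups holds 3 mice with 1 library a mouse. The methods state tamoxifen at 10 mg/kg for 8-week-old mice, then bleomycin at 4 mg/kg or PBS into the trachea, and cells were sorted as CD74 and EpCAM positive. The study's supplement describes Spc-p300 f/f mice with and without tamoxifen, and whether the Con and BLM mice of these libraries received it is not given in the sources used here. The time from bleomycin to the sort is not given for these libraries in the sources used here.

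Bleomycin breaks DNA strands and is used in mice to injure the alveolar epithelium and to provoke lung fibrosis. Broken DNA stabilises the transcription factor p53, which turns on Cdkn1a, an inhibitor of the cell cycle, and Mdm2, the ligase that degrades p53 in turn. Inflammatory signals release NF-kB from its inhibitor, and NF-kB switches on cytokine genes and also the genes of its own inhibitors. In fibrosis the lung gains collagens, elastic fibres and matricellular proteins such as thrombospondin 1, while ATII cells, which secrete surfactant, lose marker transcripts or are lost. Resident alveolar macrophages also decline after injury and monocyte-derived macrophages enter the airspace.

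Matrix genes, NF-kB feedback genes and p53 targets were among the genes higher under bleomycin, with 7 of 34 matrix glycoproteins, 4 of 20 NF-kB genes and 3 of 28 p53 targets called higher beside 1.95% of all tested genes. Lower were 4 of 17 markers of ATII cells and 3 of 15 markers of resident alveolar macrophages, beside 1.22% of all tested genes. Thbs1, which encodes thrombospondin 1, had the smallest p of all genes and was higher in each of the 6 bleomycin libraries than in any PBS library. Cdkn1a and Mdm2 rose by 1.37 and 0.86 on the log2 scale. No gene passed a correction for multiple testing in this fit, so a gene is called higher or lower here when its fold change was over 1.5 at an unadjusted p under 0.05, the threshold of the study, and "rose" and "fell" refer to that call in edgeR's quasi-likelihood test. The exact p printed beside single genes comes from a second, two-sided permutation test, which exchanged treatment within each genotype and cannot go below 0.005, and which is not adjusted for the number of genes. Where the treatments do not overlap in CPM, the exact p with all 12 libraries is 0.005 by construction. For such genes it repeats the lack of overlap and adds nothing to it.

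The libraries held between 7005005 and 11153154 counts (median 9186234). Levels of single genes are given as CPM, a gene's count scaled to the TMM-adjusted total of its library. Summed levels of a list are scaled to the raw total instead, without the TMM factor. That factor lay between 0.84 (KO 2) and 1.26 (BLM 3). A count of 3 was used as the floor, which lay between 0.217 and 0.494 CPM in single libraries and covers counting error only. The reads come from the 3′ end of each transcript, so counts do not grow with transcript length. Library BLM 3 stood apart. It had counts on 6847 genes, beside 8790 to 13838 in the other 11 libraries. Its rank correlation across genes was 0.473 with BLM 1 and 0.478 with BLM 2, while other pairs of the same group reached between 0.693 and 0.889. The summed level of 30 pluripotency genes was 5368 CPM in BLM 3 and at most 1461 CPM in any other library, and its Y-linked genes summed to 11.6 CPM. Results are therefore given with all 12 libraries and, for the leading genes and lists, also without BLM 3.

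The markers of the labelled cell type were low. The 18 ATII markers summed to between 194 and 2308 CPM over the 12 libraries, and Sftpc, the surfactant gene that defines these cells, lay between 0.606 and 619 CPM. The 16 markers of resident alveolar macrophages summed to between 9030 and 41646 CPM in the PBS libraries and between 5780 and 22149 CPM in the bleomycin libraries other than BLM 3, which held 1054 CPM. In such bulk libraries, fewer cells of a type and less RNA per cell cannot be told apart.

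With all 12 libraries, 254 of 13054 tested genes were called higher (1.95%) and 159 lower (1.22%) in edgeR's quasi-likelihood test. A p under 0.05 was reached by 413 genes, where 653 would be reached with no difference at all, and the smallest Benjamini-Hochberg adjusted p was 0.995. Replicates varied widely, with a biological coefficient of variation of 1.46. Without BLM 3 the coefficient was 1.33, and 556 of 14084 genes were called higher (3.95%) and 351 lower (2.49%). The smallest adjusted p was then 0.173, and 917 genes had a p under 0.05 beside 704 with no difference. Each call was also repeated with each of the 12 libraries left out in turn, and the number of these omissions in which a call stayed is given where it was under 12. Without KO 2, 545 of 14038 tested genes were called higher and 274 lower. Without KOBLM 2, 480 of 14144 were called higher and 268 lower. Of the called genes named below, Col18a1, Etv5, Myh11 and Tmem199 lost their call without BLM 3. In the same direction, 346 genes were called in both fits, 67 only with all 12 libraries and 561 only without BLM 3. The count filter was applied anew without BLM 3, and 13053 genes were tested in both fits. The 561 can thus include genes that were not tested with all 12 libraries, and their number was not counted.

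Thbs1 (chromosome 2, 118111876 to 118127133, GRCm38) lay between 60.1 and 448 CPM in the bleomycin libraries (median 155) and between 10.8 and 40.2 CPM in the PBS libraries (median 30.3). The groups did not overlap, and the BLM libraries were higher than the KOBLM libraries. The log2 fold change was 2.59 (SE 0.52, exact p = 0.005, adjusted p = 0.995) with all 12 libraries and 2.57 (exact p = 0.005, adjusted p = 0.173) without BLM 3. It was 3.35 between BLM and Con and 1.84 between KOBLM and KO, comparisons that share no library, and it stayed between 2.36 and 2.87 when each library in turn was left out.

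Eln, which encodes elastin, lay between 11.5 and 381 CPM under bleomycin (median 65.3) and between 0.666 and 38.7 CPM under PBS (median 8.83). BLM 3, KOBLM 2 and KOBLM 3 lay below Con 2, the highest PBS library, so the groups overlapped. The log2 fold change was 3.34 (SE 0.83, exact p = 0.02) with all 12 libraries and 3.60 (exact p = 0.005) without BLM 3, with 3.37 in BLM against Con and 3.32 in KOBLM against KO. Sparc, a collagen-binding matricellular protein, had a median of 302 CPM under bleomycin (45.2 to 757) and 57.4 CPM under PBS (19.2 to 142), a log2 fold change of 2.08 (exact p = 0.01), or 1.80 (exact p = 0.035) without BLM 3, its highest library. Timp1, the inhibitor of matrix metalloproteinases, was at 0 in 5 PBS libraries and at 0.764 CPM in Con 1. It reached 85.8, 86.3 and 137 CPM in the BLM libraries, 16.4 CPM in KOBLM 3, 0.560 CPM in KOBLM 1 and 0 in KOBLM 2. The bleomycin median of Timp1 was 51.1 CPM (exact permutation p = 0.02 with and without BLM 3).

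**Figure D1:**
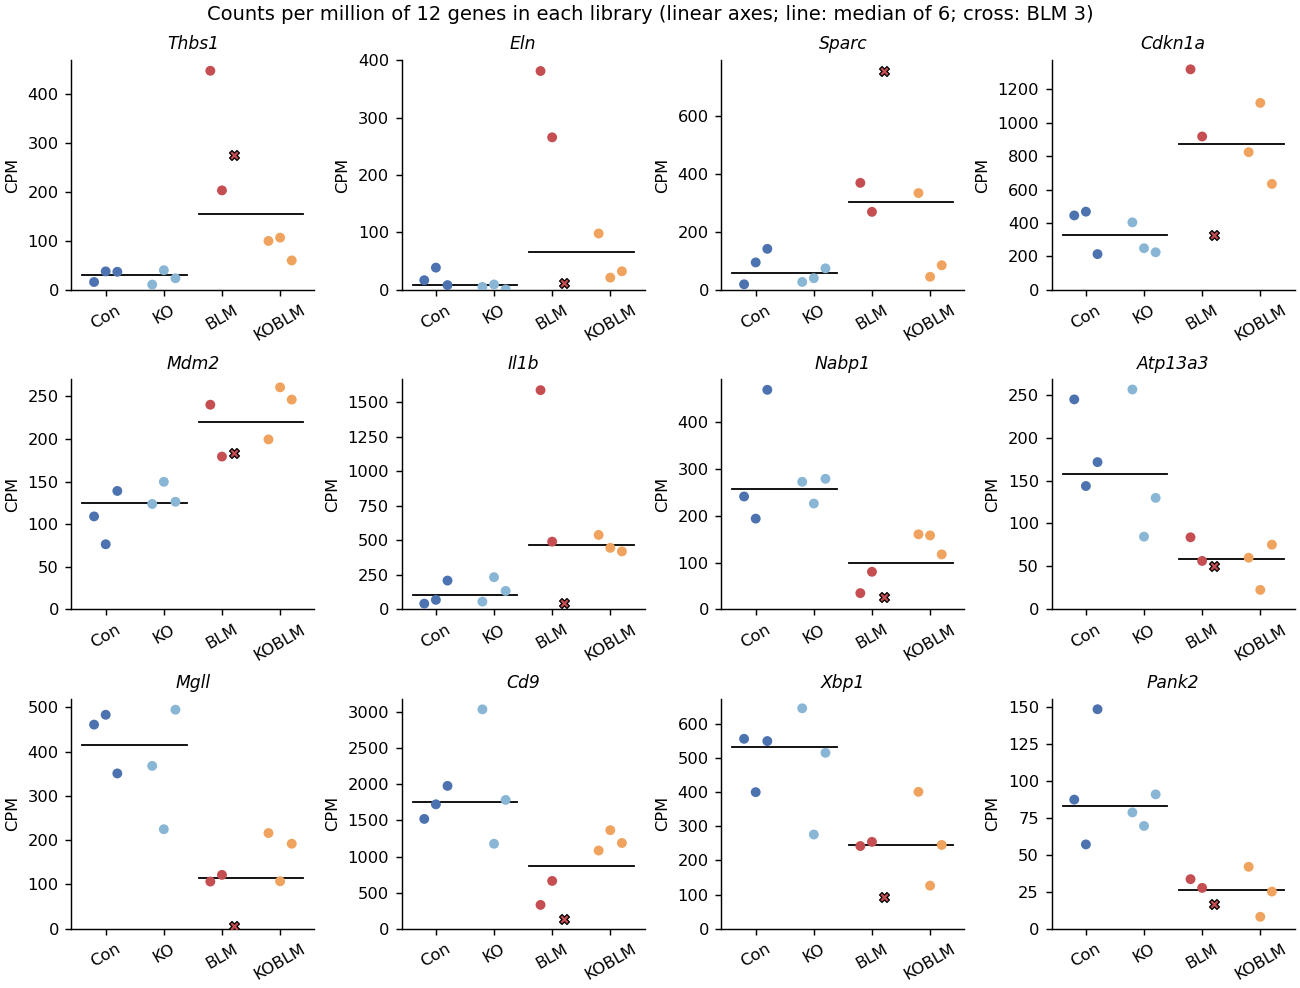
CPM (linear axes) of 12 genes in the 12 libraries, 3 per group. Points are libraries, the cross is BLM 3 and each line is the median of 6 libraries of a treatment. Thbs1, Mdm2, Nabp1, Atp13a3, Mgll and Pank2 do not overlap between treatments, and Cdkn1a and Il1b overlap through BLM 3 alone.

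Among 34 tested matrix glycoproteins and proteoglycans, 7 were called higher and none lower, against 1.95% and 1.22% of all tested genes. The 7 were Bgn, Eln, Sparc, Sparcl1, Thbs1, Tnc and Vcan. Their list had a median log2 fold change of 1.43, beside 0.03 over all tested genes, and 31 of 34 members had a positive fold change. The median was 1.54 in BLM against Con and 1.44 in KOBLM against KO. Without BLM 3, 8 of 37 members were called higher and 1 lower, with a median of 1.55 beside 0.13 for all genes, and between 4 and 8 were called higher when each library in turn was left out (4 without BLM 1). Vcan, the large proteoglycan versican, had a median of 61.3 CPM under bleomycin (highest 254) and of 5.74 CPM under PBS (highest 11.7), and rose by 3.25 on the log2 scale (exact p = 0.02), or by 3.30 without BLM 3. Vcan kept its call in 8 of 12 omissions, Sparcl1 in 6 and Bgn in 3, while Thbs1, Eln, Sparc and Tnc kept theirs in all 12. Tnc, tenascin C, was at 0 in all 6 PBS libraries and reached 149 CPM in BLM 3, 24.5 CPM in BLM 2 and 9.18 CPM in BLM 1, beside 0 to 6.30 CPM in the KOBLM libraries. Against a floor of 3 counts per library, the mean of Tnc under bleomycin was at least 94.9-fold higher, and much of it came from BLM 3.

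Of 18 tested collagens, 4 were called higher (Col1a2, Col3a1, Col11a1 and Col18a1) and none lower, with a median log2 fold change of 1.38. Without BLM 3 it was 7 of 21 with a median of 1.63, and single omissions gave between 2 (without Con 1) and 7. Col18a1 was not called without BLM 3 (exact p = 0.075), and Col18a1 and Col3a1 kept their calls in 7 and 9 of 12 omissions. Col1a2, a chain of type I collagen, lay between 105 and 891 CPM under bleomycin (median 361) and between 14.6 and 214 CPM under PBS (median 125). KOBLM 3 was the lowest bleomycin library and overlapped the PBS libraries, and the log2 fold change was 1.78 (SE 0.64, exact p = 0.015), or 1.85 (exact p = 0.03) without BLM 3. The partner chain Col1a1 was not called, at 1.45 (exact p = 0.105), with a KOBLM against KO value of 0.31 beside 2.58 in BLM against Con. The 28 listed collagens summed to between 367 and 2512 CPM under bleomycin and between 127 and 687 CPM under PBS.

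Markers of fibroblasts and smooth muscle moved with the matrix genes. Their list summed to between 247 and 2159 CPM under bleomycin (median 1123) and between 139 and 646 CPM under PBS (median 408). All 13 tested members had a positive fold change, with a median of 1.33, and 4 were called higher: Col1a2, Col3a1, Gpx3 and Myh11, of which the collagens stand in both lists. Gpx3, a secreted glutathione peroxidase, rose by 1.33 on the log2 scale (exact p = 0.005), or by 1.42 without BLM 3, and kept its call in 9 of 12 omissions, and Myh11, a smooth muscle myosin, kept its call in 8. The defining fibroblast receptor Pdgfra was at 0 in BLM 3, KOBLM 2 and KOBLM 3 and not above 41.8 CPM elsewhere, and Acta2, the actin of smooth muscle and myofibroblasts, was at 1.6 (exact p = 0.12). The part of fibroblast RNA in the matrix result was not tested.

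Of 23 tested matrix proteases and inhibitors, Timp1 and Timp3 were called higher and none lower (median 1.86, and 1.94 without BLM 3, where 4 of 25 were called higher). Between 1 and 7 members were called higher in single omissions, 7 of them without KO 2. Timp3, an inhibitor bound to the matrix, lay between 56.5 and 572 CPM under bleomycin and between 2.33 and 119 CPM under PBS, with a log2 fold change of 1.99 (exact p = 0.03), or 2.23 without BLM 3, and a call in 10 of 12 omissions. In the TGF-beta list, Tgif1, a repressor of Smad-driven transcription, rose by 1.42 (exact p = 0.075) and the receptor gene Tgfbr2 fell by 1.02 (exact p = 0.01), at 1.63 and -0.82 without BLM 3, with calls in 6 and 11 of 12 omissions, and the other 30 of 32 tested members were not called.

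Cdkn1a (chromosome 17, 29090976 to 29100727) lay between 331 and 1319 CPM in the bleomycin libraries (median 871) and between 214 and 468 CPM in the PBS libraries (median 327). BLM 3 was the lowest bleomycin library, and the other 5, at 634 CPM or more, were above all 6 PBS libraries. The log2 fold change was 1.37 (SE 0.38, exact p = 0.015) with all 12 libraries and 1.56 (exact p = 0.005, adjusted p = 0.173) without BLM 3, and it was 1.19 in BLM against Con and 1.55 in KOBLM against KO. Mdm2 (chromosome 10, 117688875 to 117710758) lay between 179 and 261 CPM under bleomycin (median 219.9) and between 76.4 and 149.7 CPM under PBS (median 125), with no overlap in either genotype. Its log2 fold change was 0.86 (SE 0.33, exact p = 0.005), or 0.88 without BLM 3, with 0.89 in BLM against Con and 0.82 in KOBLM against KO, and it kept its call in 10 of 12 single omissions, with values between 0.77 and 0.95.

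Of 28 tested p53 targets, Cdkn1a, Mdm2 and Trp53inp1 were called higher and none lower, with a median of 0.28 over the list, and Trp53inp1 kept its call in 4 of 12 omissions. The list's median was -0.05 in BLM against Con and 0.66 in KOBLM against KO, so the list as a whole did not rise in both genotypes. Without BLM 3 the death receptor gene Fas was called too, with 73.7 CPM as the bleomycin median and 36.5 CPM under PBS, and the list's median was 0.52. Bax, the mitochondrial executor of apoptosis, was at -0.23 (exact p = 0.75), and Gdf15, a secreted stress factor that p53 can induce, was at -1.03 (exact p = 0.075). The p53 targets summed to between 1464 and 3176 CPM under bleomycin and between 1289 and 1854 CPM under PBS. Between 1 and 4 members were called in single omissions, 1 of them without Con 2.

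Il1b, the gene of interleukin 1 beta, lay between 43.3 and 1588 CPM in the bleomycin libraries (median 468) and between 40.7 and 232 CPM in the PBS libraries (median 100.5). The only overlap came from BLM 3, since the other 5 bleomycin libraries lay at 419 CPM or more. The log2 fold change was 2.24 (SE 0.68, exact p = 0.045), or 2.45 (exact p = 0.005) without BLM 3, with 2.74 in BLM against Con and 1.74 in KOBLM against KO. Of 18 tested inflammatory cytokines, Il1b, Il6, Il10 and Lif were called higher and none lower (median 0.92). Il6, Il10 and Lif were at 0 in at least 1 bleomycin library and had medians of 1.31, 3.29 and 2.88 CPM, so only Il1b among the called cytokines was abundant, and Lif kept its call in 3 of 12 omissions and Il6 and Il10 in 11 each. Between 1 and 5 cytokines were called higher in single omissions, 1 of them without KOBLM 1.

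Of 20 tested subunits and feedback genes of NF-kB, 4 were called higher and none lower: Bcl3, Nfkbia, Nfkbiz and Relb. Nfkbia, which encodes the inhibitor that holds NF-kB in the cytoplasm, lay between 394 and 6293 CPM under bleomycin (median 3095) and between 669 and 3135 CPM under PBS (median 1022), and the groups overlapped. Its log2 fold change was 1.29 (exact p = 0.195), or 1.52 (exact p = 0.035) without BLM 3, and it kept its call in 6 of 12 single omissions. Nfkbiz, a nuclear member of the inhibitor family, lay between 40.7 and 455 CPM under bleomycin and between 36.7 and 173 CPM under PBS, at 1.66 (exact p = 0.065), or 1.87 without BLM 3, with a call in 12 of 12 omissions. Relb, a subunit of the alternative pathway, lay between 28.3 and 261 CPM under bleomycin and between 1.76 and 37.8 CPM under PBS, at 3.15 (exact p = 0.005), or 2.24 (exact p = 0.005) without BLM 3, its highest library. Bcl3, a nuclear partner of the p50 subunit, was at 2.61 (exact p = 0.03), or 2.83 without BLM 3, with 2.78 in BLM against Con and 2.43 in KOBLM against KO, and a call in 8 of 12 omissions. Between 2 and 6 members were called higher in single omissions, 2 of them without Con 2. The list's median was 0.63, and 0.84 without BLM 3, where Icam1 and Nfkbie were called as well. Nfkb1, the p50 subunit itself, was at -0.04 (exact p = 0.56).

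Promoter windows from RefSeq (GRCm38.p6, 250 bases before to 50 after a start) are printed for 5 of these genes, written 5′ to 3′ on the gene's strand, because members of the NF-kB and p53 lists were called higher and the known binding motifs of both factors can be read in these windows. Capitals mark the match to the 10-letter NF-kB consensus in Nfkbia, Bcl3 and Sod2 (Sod2, the mitochondrial superoxide dismutase, rose by 0.79, exact p = 0.01, with a call in 5 of 12 omissions) and to the 10-letter p53 half-site in Cdkn1a and Mdm2, searched on both strands.
Nfkbia (chr12:55492598-55492897, minus strand): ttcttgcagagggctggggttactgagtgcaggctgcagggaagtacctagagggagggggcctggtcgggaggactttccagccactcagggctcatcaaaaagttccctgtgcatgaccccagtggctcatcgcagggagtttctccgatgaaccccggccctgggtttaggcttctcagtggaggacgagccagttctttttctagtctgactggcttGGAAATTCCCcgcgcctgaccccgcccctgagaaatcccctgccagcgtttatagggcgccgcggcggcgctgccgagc
Bcl3 (chr7:19822706-19823005, minus strand): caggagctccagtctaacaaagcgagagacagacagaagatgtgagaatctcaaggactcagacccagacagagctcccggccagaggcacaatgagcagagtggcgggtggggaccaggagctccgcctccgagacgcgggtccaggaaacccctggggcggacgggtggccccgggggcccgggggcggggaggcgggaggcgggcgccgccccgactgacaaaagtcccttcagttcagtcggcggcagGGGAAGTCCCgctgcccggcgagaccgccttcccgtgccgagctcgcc
Sod2 (chr17:13007589-13007888, plus strand): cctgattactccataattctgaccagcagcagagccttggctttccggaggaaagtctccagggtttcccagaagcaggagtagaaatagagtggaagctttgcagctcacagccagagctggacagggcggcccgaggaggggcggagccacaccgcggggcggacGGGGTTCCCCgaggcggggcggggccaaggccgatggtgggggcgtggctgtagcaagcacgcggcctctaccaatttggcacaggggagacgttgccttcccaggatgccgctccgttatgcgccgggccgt
Cdkn1a (chr17:29090729-29091028, plus strand): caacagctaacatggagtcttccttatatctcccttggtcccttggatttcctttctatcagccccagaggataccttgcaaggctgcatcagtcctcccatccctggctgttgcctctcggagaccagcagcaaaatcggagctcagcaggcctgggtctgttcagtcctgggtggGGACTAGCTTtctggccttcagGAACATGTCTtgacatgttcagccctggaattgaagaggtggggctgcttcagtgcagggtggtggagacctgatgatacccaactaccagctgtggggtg
Mdm2 (chr10:117710709-117711008, minus strand): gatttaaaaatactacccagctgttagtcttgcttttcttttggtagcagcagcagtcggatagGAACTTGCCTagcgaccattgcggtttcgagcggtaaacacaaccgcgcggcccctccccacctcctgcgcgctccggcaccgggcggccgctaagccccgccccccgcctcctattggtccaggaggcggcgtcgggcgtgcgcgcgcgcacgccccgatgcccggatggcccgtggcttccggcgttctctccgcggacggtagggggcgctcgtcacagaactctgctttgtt
These 5 were chosen after the matches were seen. A match is a description of letters and not a binding site. An NF-kB match stood in a window of 1197 of 9862 tested genes that have one (12.1%), of 38 of 195 genes called higher (19.5%) and of 16 of 126 called lower (12.7%). It stood in 9 of 16 genes of the NF-kB list with a window, which were Nfkb2, Rel, Nfkbia, Nfkbie, Tnfaip3, Tnip1, Tnip3, Cyld and Bcl3. The p53 half-site stood in 8.34% of all tested genes, in 10.3% of those called higher and in 8 of 21 p53 targets. The AP-1 motif TGANTCA stood in 6.33% of all tested genes, in 9.23% of those called higher and in 9.52% of those called lower. The C/EBP motif TTGCNNAA stood in 10.4%, 10.8% and 14.3%. The shares have no test, and genes with several windows were counted once.

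**Figure D2:**
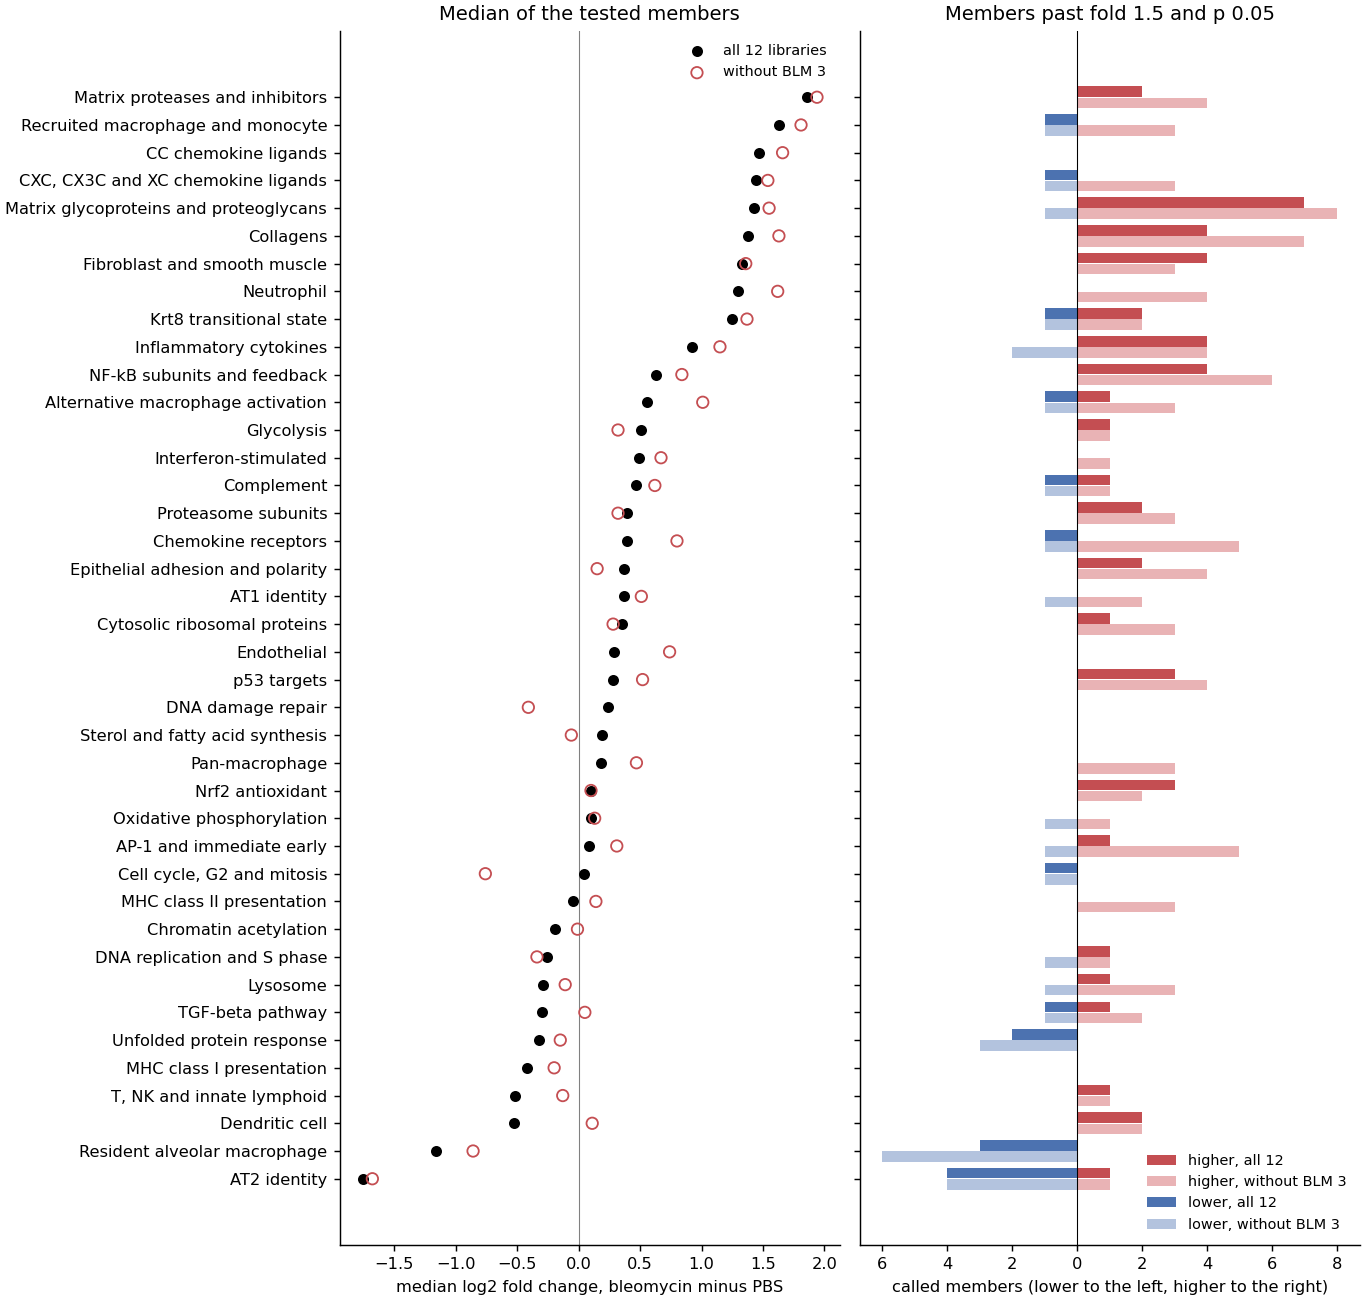
Left, median log2 fold change (bleomycin minus PBS) of the tested members of each gene list with at least 8 tested members, with all 12 libraries (filled) and without BLM 3 (open). Right, members called lower (left of 0) and higher (right of 0). Matrix, chemokine and recruited macrophage lists have medians between 1.38 and 1.86, and the ATII and resident alveolar macrophage lists lie at -1.76 and -1.16.

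Other genes were higher in all or nearly all bleomycin libraries. All 6 bleomycin libraries lay above all 6 PBS libraries for 17 of 13054 genes (0.13%) and below them for 40 (0.306%), and without BLM 3 this held for 58 genes (0.444%) and 42 genes (0.322%). How many genes would separate in this way with no difference between treatments was not estimated. The counts alone are therefore no evidence of a shift. Jak2, the kinase of many cytokine receptors, lay between 26.1 and 132 CPM under bleomycin (median 76.5) and between 4.45 and 26.5 CPM under PBS (median 13.4), with an overlap of BLM 3 and Con 2 alone. It rose by 2.62 (SE 0.66, exact p = 0.01), or 2.86 (exact p = 0.005) without BLM 3, with 2.12 in BLM against Con and 3.12 in KOBLM against KO. Arl4c, a small GTPase, lay between 61.0 and 182 CPM under bleomycin and between 8.32 and 55.7 CPM under PBS, at 1.65 (exact p = 0.005), or 1.81 without BLM 3. Smn1, the survival of motor neuron gene, lay between 47.3 and 242 CPM and between 20.4 and 45.3 CPM, at 1.64 (exact p = 0.005), or 1.39 without BLM 3. Psmd14, a deubiquitinase of the proteasome lid, lay between 104 and 207 CPM and between 26.4 and 83.0 CPM, at 1.20 (exact p = 0.005), or 1.04 without BLM 3, called in every omission but that of Con 2. The kinase gene Src lay between 6.18 and 18.6 CPM under bleomycin and did not exceed 1.91 CPM under PBS, and the heparan sulfate proteoglycan gene Sdc1 lay between 18.9 and 54.8 CPM beside at most 14.1 CPM. Ptpn13, Tmem199 and Rbms2 also did not overlap, and Rbms2 was not called (exact p = 0.005). Sdc1 and Tmem199 kept their calls in 7 of 12 omissions each, and Tmem199 lost its call without BLM 3 (exact p = 0.01).

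Igf2bp3, Tet1 and Col11a1 met the same rule for named genes but rested on BLM 3. Igf2bp3, an RNA-binding protein of embryonic tissue, was at 159 CPM in BLM 3 and at most 6.70 CPM in the other bleomycin libraries. Tet1, an enzyme that oxidises methylcytosine and a member of the pluripotency check list, was at 412 CPM in BLM 3 and at most 6.31 CPM elsewhere. Col11a1 was at 87.0 CPM in BLM 3 and at most 4.81 CPM elsewhere. All 3 kept a call without BLM 3 (exact p = 0.05 for Igf2bp3 and Tet1 and 0.02 for Col11a1), at these low levels and against PBS libraries at or under the floor.

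Nabp1 (chromosome 1, 51465862 to 51478425), a single-strand DNA-binding protein that works in DNA repair, lay between 26.7 and 160.5 CPM under bleomycin (median 98.9) and between 194 and 469.9 CPM under PBS (median 257). The groups did not overlap, and Nabp1 fell by 1.76 (SE 0.48, exact p = 0.005), or by 1.5 (exact p = 0.005) without BLM 3. Nabp1 was at -2.68 in BLM against Con and -0.84 in KOBLM against KO, with an unadjusted interaction p of 0.0345. Atp13a3, a P-type ATPase that moves polyamines, lay between 22.6 and 83.9 CPM under bleomycin and between 84.7 and 256 CPM under PBS, and it differed by -1.55 and -1.58 in the 2 genotypes (-1.56 in both, exact p = 0.005, and -1.50 without BLM 3). Pank2, a pantothenate kinase of coenzyme A synthesis, lay between 8.02 and 41.9 CPM and between 57.0 and 149 CPM, at -1.79 (exact p = 0.005), or -1.67 without BLM 3.

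Mgll, the lipase that splits monoacylglycerols, lay between 6.50 and 216 CPM under bleomycin (median 114) and between 225 and 495 CPM under PBS (median 414), with BLM 3 the lowest library. It fell by 1.77 (exact p = 0.005), or by 1.45 (exact p = 0.005) without BLM 3. Acot1, a thioesterase of fatty acyl-CoA, had a median of 17.5 CPM under bleomycin and 98.0 CPM under PBS, without overlap, at -2.85 (exact p = 0.005), or -2.49 without BLM 3. Bcar3, an adaptor of Src family signalling, had medians of 38.6 and 178 CPM, at -2.52 (exact p = 0.005), or -2.15 without BLM 3 (exact p = 0.005, adjusted p = 0.173). Tcf7l2, a transcription factor of Wnt signalling, lay between 15.2 and 569.6 CPM and between 623 and 1449 CPM, at -1.57 (exact p = 0.005), or -1.21 without BLM 3. Sept9, Qdpr and Heatr6 also had no overlap, with log2 fold changes of -1.34, -1.02 and -1.31 (-1.14, -1.10 and -1.17 without BLM 3), and Qdpr and Heatr6 kept their calls in 11 and 9 of 12 omissions. Cd9, a tetraspanin abundant in macrophages, lay between 127 and 1365 CPM under bleomycin and between 1177 and 3040 CPM under PBS, with overlap, at -1.47 (exact p = 0.015), or -1.20 without BLM 3. Cd164 and Fam129a, with medians of 451 and 105 CPM under bleomycin and 1370 and 337 CPM under PBS, were called in 12 of 12 single omissions, as were Nabp1, Atp13a3, Pank2, Mgll, Acot1, Bcar3, Tcf7l2, Sept9 and Cd9.

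Krt4 and Dapl1, which are expressed in stratified or airway epithelium, were at or near 0 under bleomycin, as was Spag11b. Dapl1 was at 0 in all 6 bleomycin libraries and between 0 and 37.8 CPM under PBS (0 in KO 2), at least 33.6-fold lower against a floor of 3 counts per library. Krt4 did not exceed 0.0944 CPM under bleomycin and reached 25.6 CPM under PBS. Spag11b had 1.17 CPM in BLM 2 as its only level above 0 under bleomycin, and its PBS median was 6.27 CPM. Scgb1a1, the secretoglobin of club cells, went the other way: it lay between 23.2 and 242 CPM under bleomycin and between 14.4 and 99.5 CPM under PBS and rose by 1.68 (exact p = 0.01), or by 1.72 without BLM 3. The 3 KOBLM libraries held 30.7, 110 and 23.2 CPM of Scgb1a1 beside 175 to 242 CPM in the BLM libraries. Scgb1a1 was the only called member of the airway club and ciliated list. That list had a median of -0.47 with 2 of 7 tested members positive, or 0.28 with 5 of 9 positive without BLM 3.

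Of 17 tested ATII markers, Cxcl15, Egfl6, Hc and Sftpa1 were called lower and Etv5 higher, with a median of -1.76 (-2.83 in BLM against Con and -1.11 in KOBLM against KO). Without BLM 3 the same 4 fell and the median was -1.68, while Etv5, whose 319 CPM in BLM 3 was its highest level, was no longer called (exact p = 0.105, a call in 8 of 12 omissions) and Napsa, a protease that processes surfactant proteins, was called higher. Sftpa1, surfactant protein A, lay between 14.1 and 141 CPM under bleomycin (median 30.7) and between 22.9 and 483 CPM under PBS (median 198). KO 2 at 22.9 CPM was the lowest PBS library and KOBLM 1 at 141 CPM the highest bleomycin library, so the groups overlapped, and Sftpa1 fell by 2.22 (SE 0.75, exact p = 0.04), or by 1.90 (exact p = 0.065) without BLM 3. Cxcl15, a chemokine of the lung epithelium, had medians of 2.92 and 81.2 CPM and was called lower at -3.12 (exact p = 0.015), or -3.32 without BLM 3, with a call in 10 of 12 omissions. Hc and Egfl6 were at 0 in all 6 bleomycin libraries, and Hc, complement component C5, was at least 25.2-fold lower against the floor. Under PBS, Hc was at 0 in KO 3, and Egfl6 was at 0 in Con 3 and KO 3 and at 0.165 CPM in KO 2. The exact p of Egfl6 was 0.08, or 0.11 without BLM 3. Sftpc, the gene whose promoter drives the Cre, had medians of 36.6 and 136 CPM and was not called, at -1.85 (exact p = 0.075). Sftpb, at -1.64 (exact p = 0.03), was not called either. Between 3 and 6 ATII markers were called lower in single omissions.

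Markers of the states that follow ATII injury were mostly not called. In the Krt8 transitional list Cldn4 and Sprr1a were called higher, but both were at 0 in all KO and KOBLM libraries, so their rise over both genotypes came from BLM alone. Krt19, a keratin of simple epithelia, was called lower at -2.96 (exact p = 0.03), or -2.14 without BLM 3, with -5.42 in BLM against Con and -0.53 in KOBLM against KO. Cldn4 and Krt19 each kept their call in 8 of 12 omissions. Krt8 itself had a median of 8.25 CPM under bleomycin and 0.996 CPM under PBS (exact p = 0.175). None of 14 tested ATI markers was called with all 12 libraries. Ager and Hopx were called higher without BLM 3, at 1.56 each, and Rtkn2 lower.

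Of 15 tested markers of resident alveolar macrophages, Ear2, Itgax and Krt79 were called lower and none higher, with a median of -1.16, beside -2.11 in BLM against Con and -0.70 in KOBLM against KO. Ear2, an eosinophil-associated ribonuclease, lay between 42.9 and 1798 CPM under bleomycin (median 491) and between 423 and 2541 CPM under PBS (median 2163), and was called lower at -1.80 (exact p = 0.04), or -1.45 without BLM 3. Without BLM 3, 6 were called lower, with Ear1, Pparg and Siglecf added. Siglecf, the surface lectin used to gate these cells, lay at 21.3, 35.9 and 0 CPM in BLM and at 27.6, 246 and 26.1 CPM in KOBLM, beside 163 to 199.9 CPM in Con and 213, 10.7 and 359.6 CPM in KO. KO 2 at 10.7 CPM and KOBLM 2 at 246 CPM thus stood with the other treatment for Siglecf, and Ear1 showed the same, at 418 CPM in KO 2 and 1422 CPM in KOBLM 2. Without KO 2 or without KOBLM 2, the same 7 markers were called lower: Atp6v0d2, Chil3, Ear1, Ear2, Itgax, Krt79 and Siglecf. The fewest called in a single omission was 2, and Itgax kept its call in 10 of 12.

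Markers of recruited macrophages and monocytes had a median log2 fold change of 1.63, and 15 of 16 were positive, yet only Cd9 was called, as lower. The median was 2.53 in BLM against Con and 0.58 in KOBLM against KO. Their sum lay between 2411 and 13707 CPM under bleomycin and between 2627 and 16592 CPM under PBS, where KO 2 held the highest value. Without KO 2, 8 of 16 were called higher, among them Apoe, Ccr2, Mmp12, Pf4 and Spp1, beside 545 of 14038 tested genes. Without BLM 3, Ccr1, Ccr2 and Pf4 were. Spp1, osteopontin, showed the difference most plainly, at 9955 CPM in KO 2, 108 to 298 CPM in the other 5 PBS libraries and 60.0 to 4123 CPM under bleomycin (exact p = 0.51). Among genes of alternative activation, Il4ra, the interleukin 4 receptor, rose by 1.13 (exact p = 0.035) and the mannose receptor gene Mrc1 fell by 1.11 (exact p = 0.04), at 1.29 and -0.88 without BLM 3, Mrc1 with a call in 9 of 12 omissions. The 18 pan-macrophage markers had a median of 0.18, with none called, and summed to 1033 CPM in BLM 3 beside 10550 CPM or more in every other library.

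**Figure D3:**
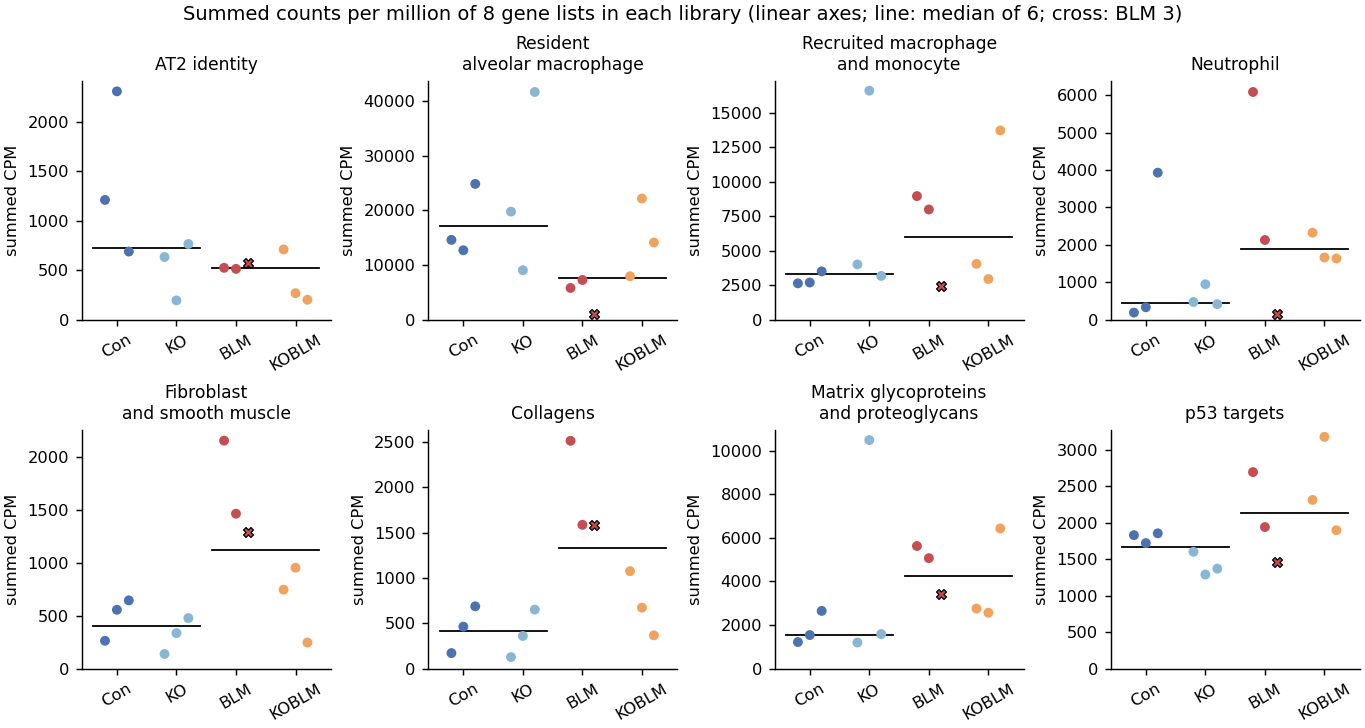
Summed CPM (linear axes) of 8 gene lists in the 12 libraries, 3 per group. Points are libraries, the cross is BLM 3 and each line is the median of 6 libraries of a treatment. Collagen and fibroblast sums are highest in the BLM libraries, resident macrophage sums are lowest there, and KO 2 holds the highest recruited macrophage sum, 16592 CPM.

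Neutrophil markers had a median of 1.30 with none of 11 called, and 1.62 without BLM 3, where Clec4d, Cxcr2, S100a8 and S100a9 were called higher. S100a8 lay between 89.0 and 2418 CPM under bleomycin and between 14.2 and 983 CPM under PBS (exact p = 0.065, and 0.035 without BLM 3). Siglech, a marker of plasmacytoid dendritic cells, rose from at most 0.106 CPM under PBS to a median of 7.51 CPM under bleomycin (exact permutation p = 0.02), and Cd3g, a chain of the T cell receptor complex, was at 0 in all PBS libraries and had a median of 2.57 CPM. Siglech was at 0.147 CPM in BLM 2 and 0 in BLM 3. The T, NK and innate lymphoid list had a median of -0.52, with 6 of 15 tested members positive and only Cd3g called. The dendritic cell list had a median of -0.53 (0.11 without BLM 3), with 3 of 10 tested members positive and only Siglech and Fscn1 called. Fscn1, the fascin of activated dendritic cells, lay between 26.4 and 245 CPM under bleomycin and between 0 and 53.2 CPM under PBS and rose by 2.96 (exact p = 0.015), or by 2.78 without BLM 3, with a call in 8 of 12 omissions. The part of these cells in the cytokine and NF-kB results was not tested.

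CC chemokine ligands had a median of 1.47 over 15 tested members (2.27 in BLM against Con and 0.56 in KOBLM against KO), with none called with or without BLM 3. Without KO 2, Ccl2 and Ccl7 were called higher, beside 545 of 14038 tested genes. In limma voom with sample weights, described below, 11 of the members were, beside 1238 of 13054 tested genes. Of these 11, 4 had an adjusted p under 0.05 and were higher, beside 140 of all tested genes. Among the 4 were Ccl8 at 7.62 (adjusted p = 0.00901), Ccl7 at 8.78 (adjusted p = 0.0268) and Ccl2 at 4.16 (adjusted p = 0.0307). The members that the study names moved unequally in the 2 genotypes. Ccl2 was at 4.56 in BLM against Con and -0.68 in KOBLM against KO. Ccl7 reached 148 and 162 CPM in BLM 1 and BLM 2 and was at 0 in BLM 3 and in all Con libraries, while it lay between 6.58 and 39.8 CPM in KOBLM and was at 0, 56.8 and 0 CPM in KO. Ccl12 was at 67.6, 97.4 and 0 CPM in BLM and at most 0.509 CPM in Con, beside at most 8.85 CPM in KOBLM and 8.80 CPM in KO. The exact p over both genotypes was 0.295 for Ccl2, 0.08 for Ccl7 and 0.29 for Ccl12. Ccl2 in KO 2 stood at 465 CPM, beside at most 37.9 CPM in the other PBS libraries. Without KO 2, the log2 fold change of Ccl2 went from 1.94 to 3.58, with a call in edgeR's quasi-likelihood test, and Ccl7 was called against PBS libraries that were then all at 0. Cxcl2, a neutrophil attractant, had medians of 3944 and 754 CPM and was not called with all 12 libraries, at 1.92. It was called without BLM 3, at 2.11 (exact p = 0.065), without KO 2, without KOBLM 2, in DESeq2 and in voom, at 2.66 (adjusted p = 0.0321). Ep300, the floxed gene, was at -0.35 in both genotypes (exact p = 0.355), with 34.3 to 177 CPM under bleomycin and 47.6 to 184 CPM under PBS. The transcription factor genes Cebpa and Cebpb had log2 fold changes of -1.13 (exact p = 0.04) and -0.89 (exact p = 0.015), and Uchl3, a ubiquitin hydrolase, of -1.13 (exact p = 0.08). None of these 3 genes was called in edgeR with all 12 libraries or in any omission, while voom called Cebpa lower. BLM 3 was the lowest library for Cebpa and Cebpb. Without it they were at -0.73 (exact p = 0.075) and -0.59 (exact p = 0.02).

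Several stress and metabolic genes were called one by one. Xbp1, the transcription factor of the unfolded protein response, lay between 93.3 and 401 CPM under bleomycin (median 244) and between 276 and 647 CPM under PBS (median 533), with KOBLM 1 the only bleomycin library above KO 2, the lowest PBS library, and was called lower at -1.12 (SE 0.39, exact p = 0.01), or -0.95 without BLM 3, with -1.35 in BLM against Con and -0.90 in KOBLM against KO. Dnajb11, a chaperone of the endoplasmic reticulum, was called lower at -1.73 (exact p = 0.015), or -1.44 without BLM 3, but kept its call in 4 of 12 single omissions, and the other 23 of 25 members of that list were not called. Sod2 lay between 196 and 382 CPM under bleomycin and between 100.1 and 261 CPM under PBS, with 0.74 in BLM against Con, 0.84 in KOBLM against KO and 0.74 over both without BLM 3. Mt2, a metallothionein, was called at 1.57 (exact p = 0.08) but was at 3.16 in BLM against Con and -0.01 in KOBLM against KO (interaction p = 0.00418, unadjusted). Hk2, a hexokinase that glycolytic cells use, rose by 1.18 (exact p = 0.035), or by 1.15 without BLM 3, and was the only one of 18 glycolysis genes called, and Mt2, Hk2 and Sod2 kept their calls in 5 of 12 omissions each.

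Proliferation genes showed how far BLM 3 could move a list. The 32 genes of G2 and mitosis had a median of 0.04 with all 12 libraries and -0.76 without BLM 3, whose sum was 6777 CPM beside at most 1196 CPM in any PBS library. DNA repair genes went from 0.24 to -0.41 in the same way. Only Kif23, a kinesin of cytokinesis, was called in the mitosis list, and it fell by 1.65 (exact p = 0.01), or by 1.27 (exact p = 0.01) without BLM 3, with a call in 5 of 12 omissions. Neither the 28 genes of sterol and fatty acid synthesis nor the 18 of MHC class I presentation held a call in either fit, and the 35 interferon-stimulated genes held none with all 12 libraries.

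The shift shared by both genotypes was small across all genes. A change over 1.5-fold in the same direction in BLM against Con and in KOBLM against KO was found for 2727 genes, of which 1524 were higher and 1203 lower, and 2362 genes changed over 1.5-fold in opposite directions. The sign was the same for 51.8% of the tested genes. Among 3807 genes with a mean of at least 50 CPM it was the same for 53.5%, and without BLM 3 for 55.5% of 3758 such genes. Of the genes shifted over 1.5-fold in both, 58.8% went the same way at this level, and 64.8% without BLM 3. Of the called genes, 231 of 254 higher and 117 of 159 lower ones were shifted over 1.5-fold the same way in both genotypes, a count that the model favours since it averages them. One treatment was at the detection floor for 110 of the higher and 42 of the lower genes. No gene had a bleomycin by genotype interaction with an adjusted p under 0.05 in edgeR (368 at an unadjusted p under 0.05).

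**Figure D4:**
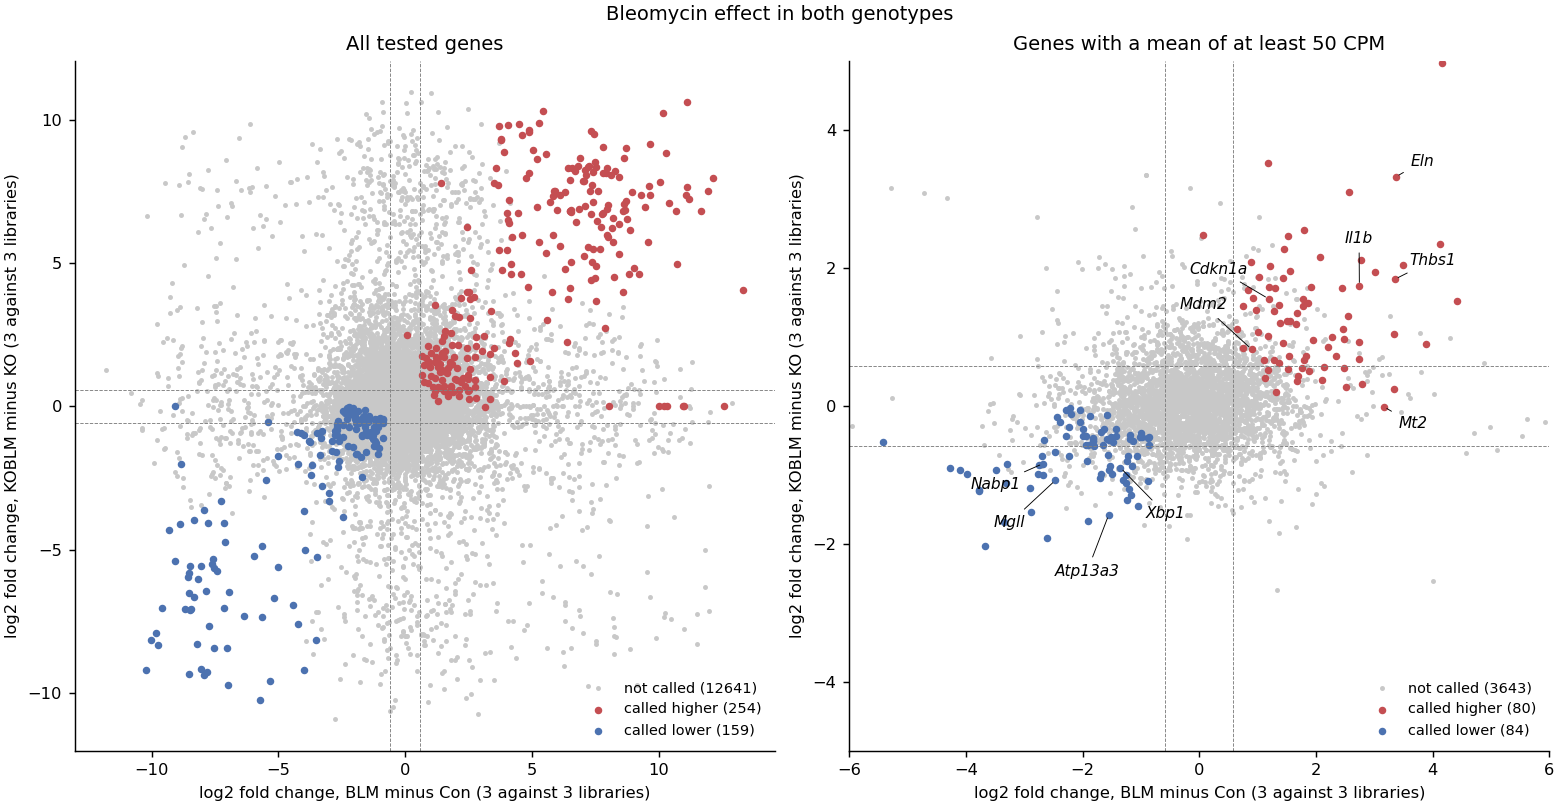
Log2 fold change of each tested gene in BLM against Con (horizontal) and in KOBLM against KO (vertical), for all 13054 genes (left) and for the 3807 with a mean of at least 50 CPM (right, with 11 points outside the axes). Red and blue points are genes called higher and lower over both genotypes and dashed lines mark 1.5-fold. The cloud shows little shared direction, and the far points on the left are genes at or near 0 in a group.

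Limma voom and DESeq2 called more genes than edgeR's quasi-likelihood test. Limma voom estimated sample quality weights from the same values. They were 0.0345 for BLM 3, 0.24 for KOBLM 2 and between 0.298 and 3.84 for the others. With these weights, voom called 1238 of 13054 tested genes higher and 660 lower, and 212 of them had an adjusted p under 0.05 (140 higher and 72 lower). Among these were 8 of 34 matrix glycoproteins, with Thbs1 at 3.31 (adjusted p = 0.00901) and Eln at 3.71 (adjusted p = 0.00901), and 4 collagens, with Col3a1 at 3.03 (adjusted p = 0.00584) and Col1a2 at 3.39 (adjusted p = 0.00987). Nfkbiz was at 2.60 (adjusted p = 0.00901), Il1b at 3.41 (adjusted p = 0.0114), Cdkn1a at 1.30 (adjusted p = 0.0114) and Mdm2 at 1.01 (adjusted p = 0.0369). Of the ATII markers, 4 were lower at an adjusted p under 0.05, among them Sftpc at -3.85 (adjusted p = 0.037), and of the resident macrophage markers 3 were, with Ear1 at -2.56 (adjusted p = 0.0183). DESeq2 with the additive model gave an adjusted p under 0.05 to 19 genes (13 higher and 6 lower), among them Tnc, Timp1, Thbs1, Jak2, Eln and Src among the higher ones and Krt4, Dapl1 and Hc among the lower ones. All genes had a median of 0.15 under voom, beside 0.03 in edgeR.

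**Figure D5:**
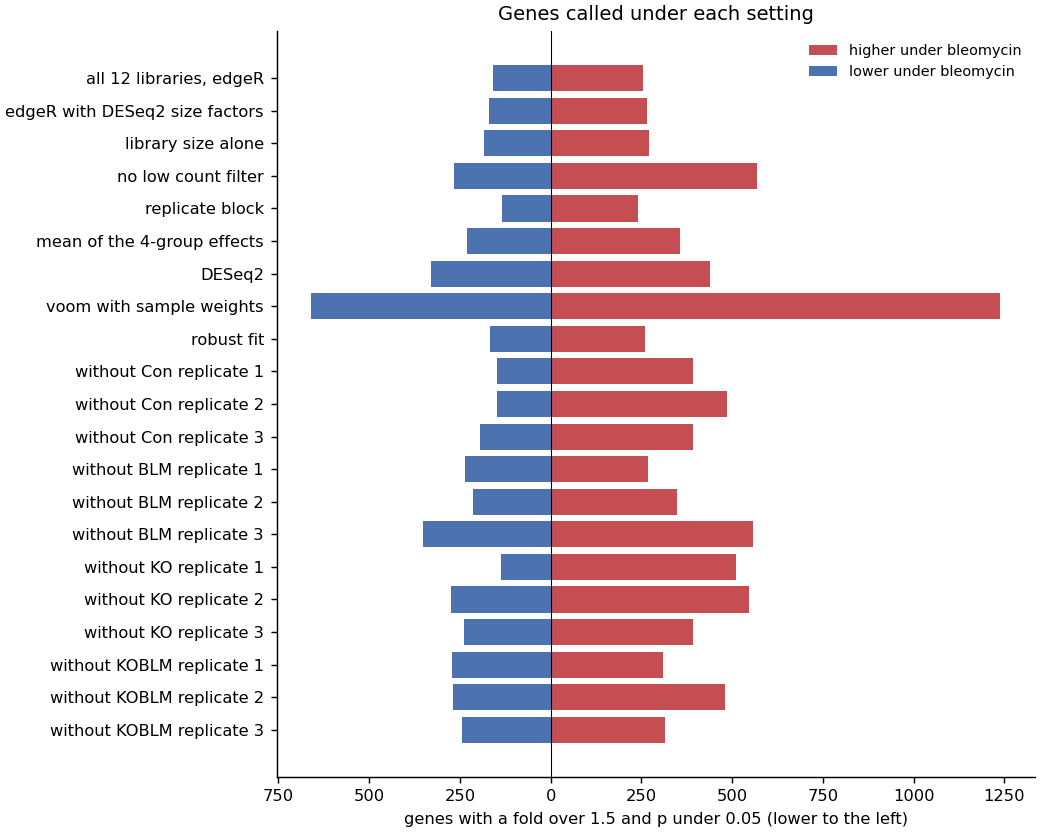
Genes called higher (right) and lower (left) under bleomycin, at a fold over 1.5 and p under 0.05, with all 12 libraries, with other scalings, models and tools, and with each library left out. The edgeR counts run from 375 with a replicate block to 907 without BLM 3, DESeq2 calls 768 and voom with sample weights calls 1898.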

How the data were processed

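Cells sorted as CD74 and EpCAM positive were profiled in 12 mice with a QuantSeq 3′ kit and single-end reads of 75 nt. The deposited values are raw read counts per gene symbol, which the authors made before deposition, and the submitters' processing notes name Bowtie2, edgeR and build mm10 without their roles. The counter and the annotation are not given in the sources used here. The files hold no other column that was used. Entries with the same symbol were summed, giving 23238 symbols from 23282 entries.

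Counts were filtered with filterByExpr over the 4 groups, scaled by TMM and fitted with the quasi-likelihood test of edgeR 4.0.16 (R 4.3.3), with genotype and treatment as terms. Benjamini-Hochberg adjustment ran over all tested genes. A fit of the 4 groups gave BLM against Con, KOBLM against KO and the interaction. Single genes were also tested by an exact two-sided permutation of log2(CPM + 1) within genotype (400 divisions, smallest p 0.005, and 200 divisions without BLM 3). Alternatives were other scalings, no filter, a replicate block, DESeq2 1.42.0, limma 3.58.1 voom with sample weights, a robust fit and the omission of each library.

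The comparison, the 47 gene lists and the rules for naming genes were chosen with earlier results of these data known, so their direction is no independent support. Genes were named as called or defining members of a list, as the 10 smallest p per direction among genes called with and without BLM 3, shifted over 1.5-fold in both genotypes and with a mean of at least 5 CPM, as genes whose treatments did not overlap, or because the study's text names them. Gene positions are from GENCODE on GRCm38. The p-values measure the spread between single mice, 3 per group, and the precision of low genes is limited by totals of 7005005 to 11153154 counts.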

Additional observations from a re-analysis of the deposited data

Results flagged for a closer look

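Among 175 sets of 6 libraries (the named genes and the gene list sums, each within a treatment, on a log2 scale), 34 had a library farther from the others than Dixon's critical value for 6 samples allows, which is 19.4% where chance gives about 1 in 20. The value is the gap to the nearest library divided by the range of the 6. BLM 3 was the lowest bleomycin library for Mgll (0.791), Acot1 (0.669), Bcar3 (0.687), Tcf7l2 (0.689), Cebpa (0.711) and Cebpb (0.749). It was also the lowest for the summed levels of the Krt8 transitional list (0.793), pan-macrophage markers (0.726), neutrophil markers (0.649), interferon-stimulated genes (0.636), inflammatory cytokines (0.725), CC chemokines (0.721), AP-1 and immediate early genes (0.746), MHC class I presentation (0.691) and Y-linked genes (0.718). BLM 3 was the highest for Tet1 (0.67), for G2 and mitosis genes (0.675) and for DNA repair genes (0.889).

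KO 2 was the highest PBS library for Ccl7 (1), for recruited macrophage markers (0.772) and for matrix glycoproteins (0.635), a list that holds Spp1. It was the lowest for Cd164 (0.713), inflammatory cytokines (0.664), TGF-beta pathway genes (0.654) and epithelial adhesion genes (0.674). KOBLM 2 was the highest bleomycin library for Rbms2 (0.715) and, with the other 5 at 0, for Krt4 (1). KOBLM 1 was the lowest for oxidative phosphorylation (0.807), and KO 3 was the lowest PBS library for Arl4c (0.695). A single library lay above 0 for Timp1 under PBS (Con 1, 1), for Igf2bp3 and Ptpn13 under PBS (Con 2, 1 each), for Tet1 under PBS (KO 3, 1) and for Spag11b under bleomycin (BLM 2, 1). What set these libraries apart was not tested.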

How the results depend on the processing

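The count of 413 called genes became 832 without a count filter (17480 genes tested), 768 in DESeq2 and 1898 in voom with sample weights. Leaving out 1 library gave between 505 (without BLM 1) and 907 (without BLM 3), with 819 without KO 2, 748 without KOBLM 2, 648 without KO 1, 636 without Con 2 and 631 without KO 3. Each omission also passed more genes through the filter, between 13804 and 14161, beside 13054 with all 12 libraries. An adjusted p under 0.05 gave 0 genes in edgeR, in every omission too, 19 in DESeq2 and 212 in voom with sample weights. A fold over 1.5 alone gave 6741 genes, and a fold over 2 with a p under 0.01 gave 76. Scaling by DESeq2 size factors (436), library size alone (454), a robust fit (426) and the mean of the 4-group effects (584) stayed within 1.5 times the count. The number of genes shifted the same way in both genotypes lay between 2727 and 3601 under all alternatives run for it. Of the single genes, Hmox1 was the only one that was called in a direction other than its sign in edgeR with all 12 libraries, at -0.25 there and at 1.77 in voom with sample weights. The cause of these differences was not tested. Over all single genes and alternatives, 2903 values kept direction and side of the threshold, 246 lost their call and 241 gained one. A further 49 values, in 14 genes, changed sign with no call in either fit, among them Pdgfra (1.06, and -1.38 without KOBLM 1), Bax (-0.23, and 0.85 in voom) and Hmox1 (1.27 without KO 2). The median of all genes moved by more than 0.1 only in voom (0.152) and without BLM 3 (0.132).

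The labels number the mice 1 to 3 in each group, and a fit with a replicate block called 375 genes. For 18 same-numbered pairs, the deviations from the group means had r between -0.117 and 0.096. The median r was 0.009 for these pairs and 0.002 for pairs with different numbers. With 3 libraries behind each group mean, such correlations cannot show whether same-numbered mice shared a day or a batch. Genes with few counts are limited by depth, and a level of 0 allows up to 0.494 CPM in the shallowest library.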

Other observations

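Several gene groups not described above held few calls. In the proteasome list, Psmb4 and Psmd14 were called higher among 31 tested subunits, and 28 of 31 were positive with a median of 0.39. Psmb4, a subunit of the core particle, lay between 91.4 and 249 CPM under bleomycin and between 73.9 and 122 CPM under PBS, and kept its call in 4 of 12 omissions. Of 78 cytosolic ribosomal proteins, 67 had a positive fold change, with a median of 0.35, and only Rps3a1 was called, with 4 of 12 omissions keeping that call. For both lists the median was near 0 in KOBLM against KO (0.00 and 0.01) and higher in BLM against Con (0.90 and 0.70), where BLM 3 held the highest sums (7845 and 56600 CPM).

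Of 17 tested complement genes, Cd59a was called higher (in 6 of 12 omissions too) and Hc lower, and 5 were called higher without KO 2. Of 18 chemokine receptors, Ccr6 was called lower (in 11 of 12 omissions too), and without BLM 3 Ackr1, Ccr1, Ccr2, Ccrl2 and Cxcr2 were called higher. The MHC class II genes H2-Aa, H2-Ab1 and H2-Eb1, which present antigen to T cells, were called higher without BLM 3, at log2 fold changes of 1.21, 1.04 and 1.41. BLM 2 held the highest level of each. Their list had a median of 0.14 without BLM 3, beside 0.13 for all genes, with 6 of 12 members positive. With all 12 libraries, no member of it rose over 1.5-fold in both genotypes. In the AP-1 list only Ier3 was called among 24, with a call in 3 of 12 omissions, and without BLM 3 Csrnp1, Dusp2, Egr1, Ier3 and Junb were called higher and Myc lower. None of 14 endothelial genes, 75 genes of oxidative phosphorylation or 23 genes of chromatin acetylation was called in edgeR with all 12 libraries.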
